A study of Mus musculus with 13 samples.

Results

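The mu-class glutathione S-transferases were examined in the liver RNA of mice treated against the long non-coding RNA LL35. The members were chosen by gene symbol, as the protein-coding rows whose symbol begins with Gstm and a digit, and 7 of the 11779 listed genes met this rule. They were Gstm1, Gstm2, Gstm3, Gstm4, Gstm5, Gstm6 and Gstm7. The family was picked for study from earlier results on the same livers, including the difference between the groups, so nothing here is independent evidence about that difference. No Gstm row had another gene type.

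The 6 livers came from Balb/c mice, 3 of which received a mix of 5 GalNAc-conjugated antisense oligonucleotides (ASOs) against LL35 and 3 a GalNAc-conjugated ASO against firefly luciferase (Luc), all collected on day 5. The labels and methods speak of 5 ASOs, whereas the supplementary list of GalNAc-conjugated ASOs, as read here, holds fewer. The labels give a dose of 150 mg/kg for each ASO, while the methods of the study give doses as totals of the mix. GalNAc is a sugar bound by a hepatocyte surface receptor, so hepatocytes are the targeted cells, whereas the RNA was taken from whole pieces of liver. The 3 AML12 Luc ASO and 4 AML12 LL35 ASO libraries, from a line of mouse hepatocytes on day 2, were not analysed here. The deposited liver table holds, for each gene, a single level that the authors averaged over the compared livers of both groups, and no value for a single mouse. Every level below is therefore the authors' mean, without SD or n, and no difference between Luc ASO and LL35 ASO livers is given, because the only columns on that difference are the authors' own fold changes and p-values. The value is a mean normalized count, the number of reads of a gene after the libraries were scaled to one another. No row carries the symbol of LL35, 9030622O22Rik, and its knockdown was not examined. The reads per library are unknown, and so is the precision that they give.

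Glutathione S-transferases join the tripeptide glutathione to reactive electrophiles, which makes these compounds more soluble and ready for export. The cytosolic enzymes work as dimers and are divided into classes by sequence, of which mu is a large one in rodents, and membrane-bound enzymes form a separate family. In the liver, these enzymes act on drugs, plant compounds and products of lipid peroxidation, and their substrate, glutathione, is made there in large amounts.

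The mu-class genes stand together on mouse chromosome 3. In the GENCODE M21 annotation of GRCm38, the order along the chromosome was Gstm5, Gstm7, Gstm6, Gstm3, Gstm2, Gstm1 and Gstm4. The cluster spanned 149 kb and held 16 annotated genes, among them 7 pseudogenes, none of which is among the listed genes, and no protein-coding gene other than the members. Gstm5 lay at one end, on the plus strand, and the other 6 members on the minus strand. The genome build behind the deposited table is not named in the sources used here, so positions are those of the reference, matched through the Ensembl gene identifiers. All 7 identifiers, from ENSMUSG00000058135 for Gstm1 to ENSMUSG00000004035 for Gstm7, were found there with the same symbol.

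To show how far the members can be told apart in sequence, the stretch of 60 aligned coding bases with the most variable positions is printed, taken from the GENCODE M21 transcripts. Members differed from one another at 41 of its 60 positions. In Gstm1 it covers coding bases 318 to 377, spans an intron between exons 5 and 6 of 8, and lies on the minus strand at chr3:108015024-108016370 of GRCm38. Capitals mark bases that differ from Gstm1.
Gstm1: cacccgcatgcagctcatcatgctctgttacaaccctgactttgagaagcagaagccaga
Gstm2: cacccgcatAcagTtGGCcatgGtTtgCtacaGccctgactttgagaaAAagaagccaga
Gstm3: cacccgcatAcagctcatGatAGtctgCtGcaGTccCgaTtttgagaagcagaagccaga
Gstm4: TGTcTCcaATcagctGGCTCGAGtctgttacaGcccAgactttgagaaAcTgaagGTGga
Gstm5: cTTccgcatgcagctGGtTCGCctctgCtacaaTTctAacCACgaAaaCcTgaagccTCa
Gstm6: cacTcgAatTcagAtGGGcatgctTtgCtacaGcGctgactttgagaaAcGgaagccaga
Gstm7: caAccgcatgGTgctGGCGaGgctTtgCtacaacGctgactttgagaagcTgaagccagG

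Within this stretch, Gstm3 differed from Gstm1 at 10 positions and Gstm2 at 11, while Gstm5 differed at 20 and Gstm4 at 22. Gstm6 and Gstm7 differed at 13 positions each. In the stretch of 60 coding bases with the fewest variable positions, at coding bases 203 to 262 of Gstm1 in exons 4 and 5, members differed at 15 positions. There Gstm2 differed from Gstm1 at 3 positions and Gstm3, Gstm4, Gstm6 and Gstm7 at 6 each, while Gstm5 differed at 12.

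Over the whole coding sequence, the 21 pairs of members were identical at a median of 82.3% of 657 aligned bases, and the range was 69.1% to 89.5%. Gstm1 and Gstm3 were the closest pair, with 69 differing bases. Gstm5 stood apart from the other members. Its identity to them was at most 72.3%, while the 15 pairs without Gstm5 had at least 79.1%. Gstm5 also had the longest coding sequence, with 224 codons before the stop, against 218 in each of the other 6.

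**Figure D1:**
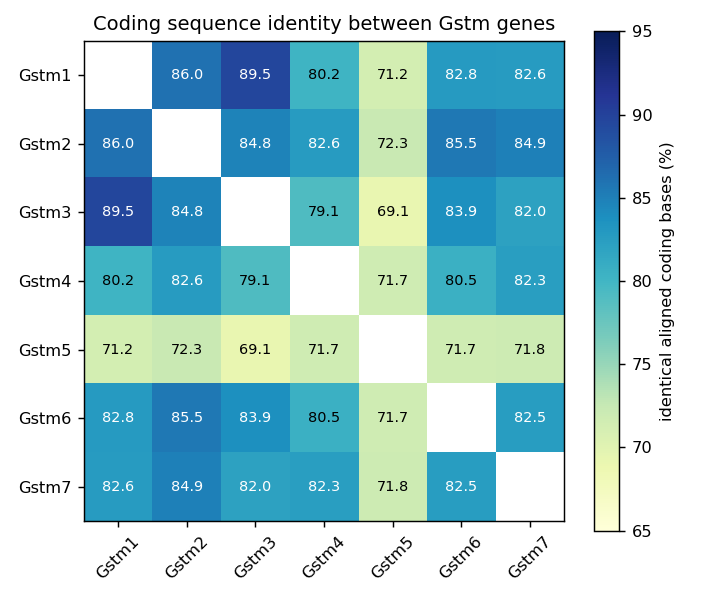
Heat map of the percentage of identical aligned coding bases for each pair of the 7 Gstm genes, with one gene per row and per column and the diagonal left blank. The row of Gstm5 is pale, at 69.1% to 72.3%, and the darkest cell is Gstm1 with Gstm3, at 89.5%.

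Of the 21 pairs, 3 shared a run of at least 50 coding bases without any difference. The longest runs are printed because a read that falls wholly inside one matches both genes equally. The longest was a run of 125 coding bases, 169 to 293 in both Gstm3 and Gstm6, which lies in exons 3 to 5 of Gstm3 at chr3:107967642-107968144 on the minus strand of GRCm38. The next was a run of 112 bases, at coding bases 389 to 500 of both Gstm1 and Gstm3, which lies in exons 6 and 7 of Gstm1 at chr3:108014820-108015012, also on the minus strand. Both intervals include introns.
Gstm3 and Gstm6: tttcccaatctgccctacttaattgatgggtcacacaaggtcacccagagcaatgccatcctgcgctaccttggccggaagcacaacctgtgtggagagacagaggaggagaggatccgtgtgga
Gstm1 and Gstm3: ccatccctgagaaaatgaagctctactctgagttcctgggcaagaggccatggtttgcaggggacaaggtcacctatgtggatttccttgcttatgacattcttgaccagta

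How much of each transcript is shared was measured by cutting the annotated transcripts of each member into overlapping windows of 50 bases and searching for each window, on both strands, in the transcripts of all other annotated genes. For Gstm4, 100% of the windows occurred in no other gene, and for Gstm7 it was 99.5%. The share was 94.3% in Gstm2, 94.0% in Gstm6 and 90.6% in Gstm5. Gstm1 and Gstm3 shared most, with 81.1% and 71.2% of their windows found in no other gene. Thus the gene with the highest level and its closest relative in sequence were also the members with the most sequence in common with other genes.

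In Gstm1 and Gstm3 most shared windows were found in Gstm genes or pseudogenes. In Gstm1, 8.88% of windows occurred in another member, mainly Gstm3, and 14.1% occurred in the processed pseudogene Gstm2-ps1. In Gstm3, 15.8% occurred in another member, and 16.0% occurred in the processed pseudogene Gm8834, with windows counted under each gene that holds them. Neither pseudogene is among the listed genes. The shared windows of Gstm5 all belonged to 4933431E20Rik, an antisense RNA gene whose exons cover 13.9% of the exon bases of Gstm5 on the opposite strand and which was listed with a mean normalized count of 30.8. The libraries were directional, but which strand setting the counting used is not stated in the sources used here. How reads in this overlap were counted is therefore not known. No other member shared exon bases with another annotated gene. With windows of 100 bases, the share found in no other gene was 94.1% in Gstm1 and 86.2% in Gstm3, and at least 94.4% in the others. The windows cover annotated transcripts only, not the rest of the genome, and differences between the reference and the Balb/c mice were not examined.

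**Figure D2:**
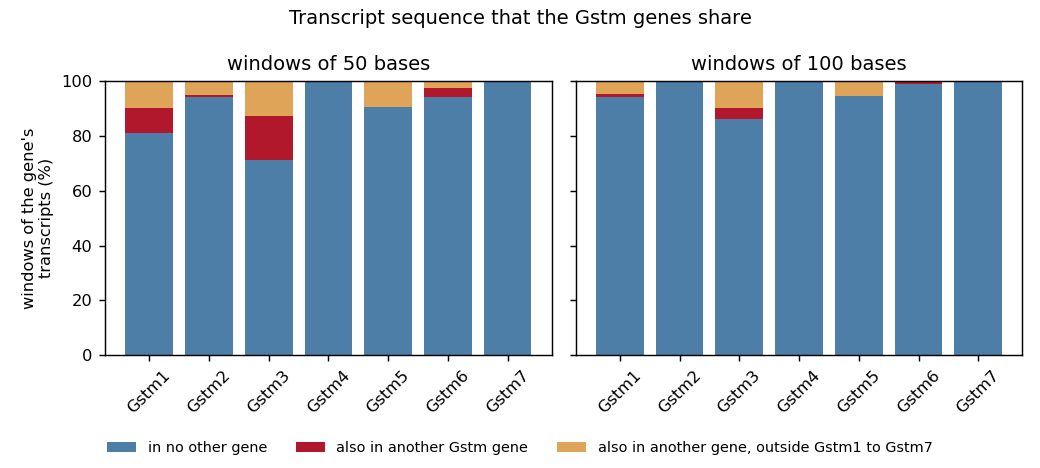
Stacked bars of the percentage of each Gstm gene's transcript windows found in no other gene, in another Gstm gene, or only in a gene outside the 7, for windows of 50 bases (left) and 100 bases (right). Gstm3 has the lowest share found in no other gene in both panels, at 71.2% and 86.2%, and Gstm4 is at 100% in both.

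Gstm1 had by far the highest value of the family in liver, both as a count and per length. The counts are given first, as deposited and without regard to gene length. For Gstm1 the mean normalized count was 4750, against a median of 235 over all listed genes, and only 271 genes had a higher value. Gstm2 followed with a mean normalized count of 287 and Gstm7 with 271. Both lay just above the median gene, at the 55.5th and 53.9th percentile. Gstm4 had a mean normalized count of 224 and Gstm3 of 180, slightly below the median gene. Gstm6 and Gstm5 had the lowest counts, with 90.0 and 60.1, at the 26.8th and 18.9th percentile. Thus 3 of the 7 members lay above the median gene in count, against 5 of 7 per kilobase, and the whole family took up 0.0519% of the summed mean normalized counts of the listed genes, of which Gstm1 alone contributed 0.042%. The lowest value among the listed genes was 15.6, below every member. Gstm5 was nevertheless close to Cela1, a pancreas and gut marker listed with 58.1.

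**Figure D3:**
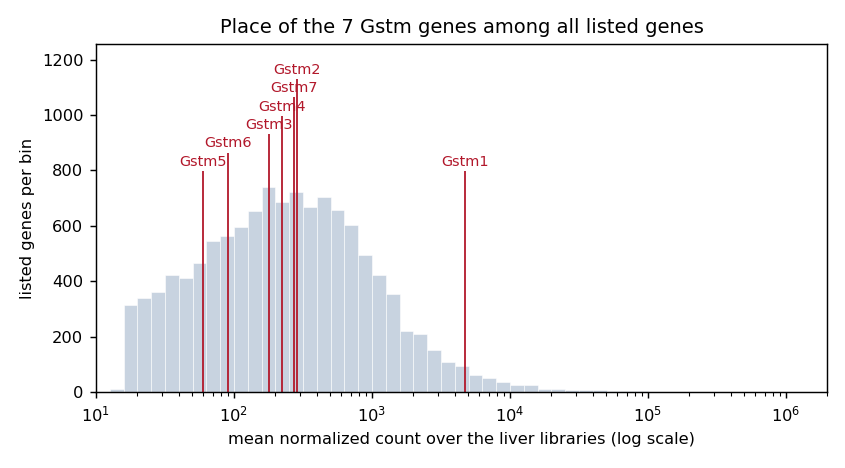
Histogram of the authors' mean normalized count over the liver libraries (log scale) for the 11779 listed genes, with a vertical line at each Gstm gene whose height has no meaning. Gstm1, at 4750, stands in the upper tail, while the other 6 members lie between 60.1 and 287, on both sides of the median gene at 235.

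Since longer genes collect more reads, these counts give no order of transcript levels between genes, and levels are given from here per kilobase, after division by the length of the union of annotated exons, which ran from 1278 bases in Gstm5 to 1989 bases in Gstm6. On this scale Gstm1 reached 3225 per kilobase, which is 18.8 times the level of the next member and 71.3 times that of the lowest. It made up 82.1% of the summed level of the family and was 4.6 times the sum of the other 6. Among the 11754 genes with an annotated length, only 130 were higher per kilobase.

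The other 6 members fell into a middle and a low group, by description only, as no spread between mice is known. The middle group held Gstm2 with 171, Gstm7 with 169, Gstm3 with 137 and Gstm4 with 131 per kilobase, all between the 75.6th and the 80.9th percentile of genes by level per kilobase. The low group held Gstm5 with 47.0 and Gstm6 with 45.2 per kilobase, close to the median gene at 51.5. The step from Gstm4 to Gstm5 was 2.8 times. Inside the groups the neighbours in the order differed little. Gstm2 was 1.01 times Gstm7, Gstm7 1.23 times Gstm3, Gstm3 1.05 times Gstm4 and Gstm5 1.04 times Gstm6, and whether such neighbours differ beyond the spread between mice cannot be told from a single mean. The gap between the groups depended on the length used. Per longest annotated transcript it shrank to 1.72 times, between Gstm4 and Gstm6, when Gstm7 was 1.43 times Gstm3 and Gstm6 was 1.38 times Gstm5, so the groups were then hardly set apart. Per coding length, the gap was 2.002 times and Gstm6 was 1.54 times Gstm5.

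Neighbours in the cluster and closest relatives in coding sequence shared a level group in some cases and not in others. The groups are those per kilobase of exon. Gstm2 was the closest relative in coding sequence of both Gstm7, at 84.9%, and Gstm4, at 82.6%, and all 3 were in the middle group. Gstm3 and Gstm2 were the only neighbours in the cluster that shared a group. By contrast, Gstm1, the highest member, stood between Gstm2 and Gstm4 of the middle group. Gstm2 was also the closest relative in coding sequence of Gstm6, at 85.5%, and of Gstm5, at 72.3%, both in the low group. The closest relative of Gstm2 itself was Gstm1, at 86.0%. Gstm1 and Gstm3, the closest pair in coding sequence, differed 23.5 times in level per kilobase. Gstm5 and Gstm6, at nearly the same low level, were identical at 71.7% of aligned coding bases and stand on opposite strands. These are descriptions of 7 genes, with no test. Of the listed genes around the cluster, Ampd2, an AMP deaminase that adjoins Gstm4, had 73.2 per kilobase, and the antisense gene 4933431E20Rik at the Gstm5 end had 4.51. Further out, Gnai3, a G protein subunit, had 387 per kilobase, above every member but Gstm1, and Csf1, a macrophage growth factor, had 32.1, below every member. Amigo1, Cyb561d1 and Atxn7l2, also listed and near the cluster, were not examined.

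The choice of length changed the order below Gstm1 but not the place of Gstm1. With the longest annotated transcript, the coding length, the number of 50-base windows found in no other gene or no division at all, Gstm1 made up 80.9% to 83.4% of the summed level of the family. When the same count was divided by the number of windows found in no other gene, Gstm3 moved up to the second place. It had 200.4 in place of 137, ahead of Gstm2 with 181 and Gstm7 with 161, where windows stand in for bases. This division takes reads in shared windows as not counted, which was not tested. Gstm6 was the lowest member per kilobase of exons and by windows, and Gstm5 was the lowest by longest transcript, by coding length and without division.

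**Figure D4:**
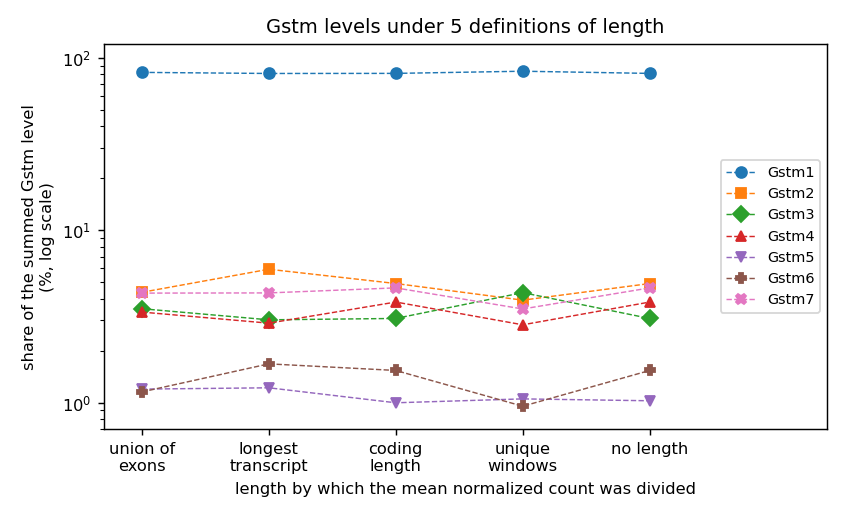
Share of the summed Gstm level (percent, log scale) held by each of the 7 genes when the mean normalized count was divided by each of 5 lengths, with one marker per gene and dashed lines that only link the same gene. Gstm1 stays between 80.9% and 83.4%, while the lines of Gstm2, Gstm3, Gstm4 and Gstm7 cross, as do those of Gstm5 and Gstm6.

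Among the listed glutathione S-transferases, the mu class ranked after the microsomal and pi classes per kilobase of exon. Of the 30 genes of this family in the list used, 23 are listed, 7 of mu and 16 of other classes. Their summed level was shared out as 28.6% microsomal, 23.6% pi, 19.4% mu, 11.6% alpha, 6.5% theta, 4.95% zeta, 3.92% kappa and 1.43% omega per kilobase, and the sigma-class Hpgds, a prostaglandin D synthase, and Gstcd held less than any of these. The microsomal share came almost wholly from Mgst1, a membrane-bound enzyme of the endoplasmic reticulum and mitochondria, with 5733 per kilobase. The pi share came mainly from Gstp3 with 4346 per kilobase, and Gstm1 came next among the 23 genes. It was followed by Gsta3, the main alpha-class gene here, with 1880 per kilobase, and by Gstz1, which isomerises maleylacetoacetate in the breakdown of tyrosine, with 1004 per kilobase. This order of genes depended on the division by length. By mean normalized count, Mgst1 with 11540, Gsta3 with 8169 and Gstz1 with 5109 lay above Gstm1, which had 4750. Gstp3, with 3947, lay below Gstm1 in count. Of the other mu genes, Gstm2, Gstm7, Gstm3 and Gstm4 took places 13 to 16 per kilobase. They lay below the theta-class genes Gstt2 and Gstt3 with 229 per kilobase each. Gstm5 and Gstm6 were at places 19 and 20, near Mgst3 with 56.5 per kilobase and Gsta2 with 53.05.

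**Figure D5:**
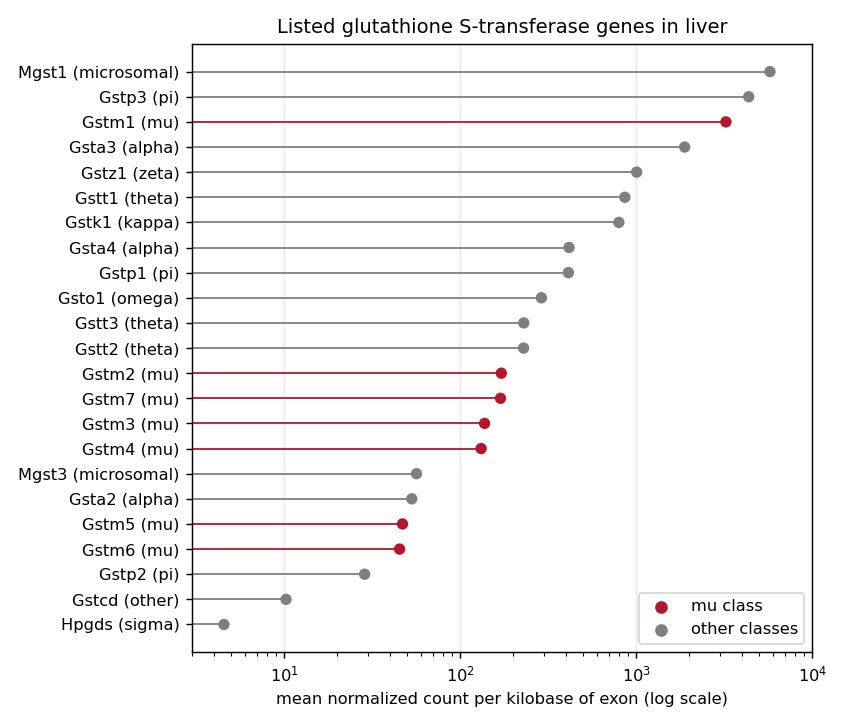
Mean normalized count per kilobase of exon (log scale) of the 23 listed glutathione S-transferase genes in liver, one point per gene, with mu-class genes in red and other classes in grey. Gstm1, at 3225, comes after Mgst1 and Gstp3, and the other 6 mu genes lie between 45.2 and 171.

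The leading gene of a class held most of its class elsewhere too. Gstm1 made up 82.1% of the mu class, as Gstp3 made up 90.8% of pi and Gsta3 80.1% of alpha, while Gstt1 made up 65.2% of theta. The genes Gsta1, Gsta5, Gsta13, Gstt4, Gsto2, Mgst2 and Ptges are not among the listed genes and were not analysed here, so the shares cover listed genes only. Sequence shared with other genes was measured for the mu genes only. Its effect on the counts of the other classes, and so on these shares, was not tested. The weight of the mu class depended on how length was handled. It was 14.3% of the mean normalized counts without division by length and 12.9% per coding length, and it was 28.7% per kilobase of exon when only the 19 genes of the cytosolic classes were counted. Per coding length and without division, the alpha class, with 19.1% and 21.4%, took the place of pi ahead of mu, and pi, with 10.6% and 11.3%, came after mu and zeta. The exon union was 1473 bases in Gstm1, against 4344 in Gsta3 and 5088 in Gstz1.

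The genes that supply glutathione covered a wide range. Of 12 such genes, 10 are listed, and Ggt1 and Slc7a11 are not. Cth, the enzyme that releases cysteine in transsulfuration, had 939 per kilobase, and Gclc, the catalytic subunit of the enzyme that starts glutathione synthesis, had 797. Its modifier subunit Gclm had 410 and Gsr, which reduces oxidised glutathione, had 374. All 10 lay below Gstm1 in mean normalized count and per kilobase, and 6 of them lay above each of the other 6 mu genes per kilobase. Gss, which completes glutathione synthesis, had 128 per kilobase, just under Gstm4. Without division by length Gss was above Gstm4, with a mean normalized count of 756 against 224. The exon union was 5915 bases in Gss and 1707 in Gstm4. The lowest were Ggt6 with 28.7, G6pdx with 17.3 and Ggct with 7.46 per kilobase, all below the lowest mu gene and the median gene. Their mean normalized counts were 52.2, 53.3 and 57.8, so their order was reversed without division by length.

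The tissue label was checked with marker genes. All 8 hepatocyte markers were listed, with mean normalized counts from 10070 to 1217470, and per kilobase 7 of the 8 lay above Gstm1, while Hnf4a, a hepatocyte transcription factor, lay below it with 2550 per kilobase. Markers of other liver cells were present at lower counts, between 120.3 and 1954 for the 6 Kupffer cell genes, between 120.9 and 2171 for the 5 sinusoidal endothelial genes and between 51.8 and 1549 for the 5 stellate cell genes. Of the 5 cholangiocyte markers, Spp1 was listed with 151.5 and Sox9 with 41.1. The other cholangiocyte markers, Krt19, Krt7 and Epcam, and the pancreas and gut markers Prss1, Amy2a5 and Vil1 are not among the listed genes, while Cela1 was listed with 58.1. Of the blood cell markers, 1 of 4 lymphocyte genes, 2 of 3 neutrophil genes and 2 of 3 erythroid genes were listed, with at most 316 in Hba-a1, a haemoglobin gene. The share of the Gstm signal that came from each cell type was not tested, and in whole liver fewer cells of a type and less RNA per cell cannot be told apart.

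The promoters of the members were searched for short motifs, as a description of the sequence only. RefSeq start sites on GRCm38.p6 gave 12 promoters for the 7 genes, each from 250 bases before to 50 bases after a start. The core of the antioxidant response element, TGACNNNGC, at which the stress factor NRF2 is known to bind, was found on either strand in 12.4% of all 32851 promoters and in 2 of the 12. They belonged to Gstm5 and Gstm7, neither of them the highest member. These windows are printed with the motif in capitals, and they lie at chr3:107895792-107895840 on the plus strand and chr3:107931715-107931763 on the minus strand of GRCm38.p6.
Gstm5: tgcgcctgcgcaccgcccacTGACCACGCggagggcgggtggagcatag
Gstm7: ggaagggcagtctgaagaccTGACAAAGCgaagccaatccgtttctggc

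Counted from the start site, with negative values before it, the match began at -42 in Gstm5 and at -129 in Gstm7. The TATA box letters TATAAA were found in 13.6% of all promoters and in 3 of the 12, one each of Gstm1, Gstm5 and Gstm7. In Gstm1 they began at -30, where a TATA box usually lies, in Gstm7 at -231 and in Gstm5 at 40, past the start site. The Gstm1 window is at chr3:108017823-108017868 on the minus strand of GRCm38.p6, in a promoter whose start lies 155 bases inside the annotated gene.
Gstm1: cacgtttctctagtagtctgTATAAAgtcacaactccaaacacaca

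The palindromic C/EBP letters TTGCGCAA were in 0.183% of all promoters and in none of the 12. The same held for the HNF1 core and a direct repeat known to bind xenobiotic receptors, which were in 0.0609% and 0.0122% of all promoters. With motifs this rare, no match says only that these letters are not in these windows.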

How the data were processed

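Livers of 3 Liver Luc ASO and 3 Liver LL35 ASO mice were sequenced in directional libraries depleted of ribosomal RNA. Per the labels and methods, the authors used STAR 2.5.3a for alignment and counting on Ensembl genes and normalized the counts by the RLE method of DESeq2. The genome build is not given in the sources used here. The deposited table gives for each of 11779 genes the authors' mean normalized count, a signal averaged over the compared libraries. Its other columns hold the authors' log2 fold change, standard error, Wald statistic, p-value and adjusted p-value and were not used. So no test was made and no spread could be given.

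Exon lengths were taken from GENCODE M21 for the 11754 identifiers found there, of which 11525 carried the same symbol. Coding sequences of the principal transcripts were aligned with MAFFT 7.526. No protein sequences were used here, so the protein identity planned was replaced by coding identity, and coding length came from the annotation, without the stop codon. Windows of 50 bases, which stand for the read length, were compared exactly. The read length printed in the methods is not plausible, so windows of 100 bases were tried too. Promoters were those of RefSeq on GRCm38.p6. Named genes were the members and the lists of other glutathione S-transferases, glutathione supply genes and cell type markers, and printed sequences and the partners of shared windows were chosen after their values were seen. Members and lists were chosen with earlier results of these data known. Code ran under Python 3.11.15 with numpy 2.4.6, pandas 2.3.3 and matplotlib 3.10.9, and the window, motif and identity steps were tested on simulated sequences.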

Additional observations from a re-analysis of the deposited data

How the results depend on the processing

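The mu class made up 19.4% of the summed level of the listed glutathione S-transferases per kilobase of exon. This share was 15.4% with the longest annotated transcript, 12.9% with the coding length, 14.3% without division by length and 28.7% within the cytosolic classes alone. Gstm1 was the highest member under every length tried, whereas the order of the other 6 was not the same under any of the 4 alternatives. With listed genes kept only from a mean level of 50 upwards, the percentile of Gstm5 was 3.71 instead of 18.9, because most of the genes below it were then left out. Among protein-coding genes alone it was 17.7. The depth of the libraries, the spread between mice and the effect of leaving out a mouse could not be computed from 1 mean per gene. No paired analysis was possible because no values of single mice were analysed here.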
